A study of Mus musculus with 12 samples.

Results

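The genes that write, erase and read histone acetylation were taken as a fixed set of 34 named mouse genes, out of 21851 protein-coding genes in the annotation used. The set held 13 writers, 18 erasers and 3 readers, and all 34 were found in the annotation by symbol. For each gene, every peak that touched the gene body or the 5000 bp on either side, called its window here, was read from the deposited peak lists. Chromatin immunoprecipitation followed by sequencing (ChIP-seq) had been performed on mesenchymal stem cells (MSCs) of C57BL/6N mice aged 3 to 5 months. The methods state that only wild-type males were used. Sample labels call the cells bone-marrow MSCs, whereas the methods describe cells released from hind-limb bone and sorted as CD45-, Ter-119-, Sca-1+ and CD140a+. The hypoxia groups were cultured at 2% oxygen and the normoxia groups at 21% oxygen, and according to the methods both came from cells expanded at the lower level that were then kept at their own level for a week. There were 2 libraries for each of H3K27ac, H3K4me3 and input chromatin at each level, 12 in all. No allele, transgene or drug distinguished the groups, and the number of mice behind each library is not given in the sources used here.

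Acetyl groups are placed on histone lysines by acetyltransferases (writers), removed by deacetylases (erasers) and bound by bromodomain proteins (readers). Acetylated chromatin tends to be open to the transcription machinery. H3K27ac, the acetylated form of a lysine in the tail of histone H3, is found at active promoters and enhancers. H3K4me3, a trimethylated lysine of the same tail, marks promoters. Some of these proteins act on the H3K27ac that was mapped here and others on other substrates, while their own genes can carry it as any other gene can. The sirtuins among the erasers need the cofactor NAD+, and the writers need acetyl-CoA.

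Each of the 4 peak lists was made from both libraries of its group, so none of the values below has a replicate check, and the sequencing depth is unknown. A peak is an interval called by the authors, and its presence in a list is a yes or no call in a bulk culture, where a mark carried by fewer cells and a weaker mark in every cell cannot be told apart. The lists held 15203 H3K27ac peaks in hypoxia and 14832 in normoxia, and 14606 and 14603 H3K4me3 peaks. The cell identity was checked on the starts of marker genes. Of 10 MSC markers, 9 carried H3K4me3 and 7 carried H3K27ac, and Pdgfra, which encodes CD140a, carried both. Eng, Lepr and Nt5e had H3K4me3 without H3K27ac, and Ly6a, which encodes Sca-1, had H3K27ac alone. None of 3 endothelial markers carried H3K27ac, while Kdr carried H3K4me3, and of the blood markers Ptprc, which encodes CD45, Cd3e, Itgam and Spi1 carried neither mark. All of these calls were the same at both oxygen levels.

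The first question was which of these genes had an active promoter in MSCs. A transcription start was taken as marked when a peak lay within 1000 bp of it, for any protein-coding transcript of the gene. H3K4me3 marked a start of 32 of the 34 genes at both oxygen levels (94.1%, 95% CI 80.9 to 98.4), against 58.9% of all protein-coding genes in hypoxia and 58.9% in normoxia. H3K27ac marked a start of 25 genes in hypoxia (73.5%, 95% CI 56.9 to 85.4) and 24 in normoxia (70.6%, 95% CI 53.8 to 83.2). The same was true of 37.6% of all protein-coding genes in hypoxia and 37% in normoxia. Without the lowest-scoring 25% of both lists, the members with H3K27ac at a start numbered 22 in hypoxia and 23 in normoxia, the reverse order. The intervals are Wilson intervals, which cover counting error only. Most of the writers, erasers and readers were thus among the marked genes at either level, and the gap to all genes was larger than the difference between the levels. A gene with several starts has more chances to be marked, and 25 of the 34 had more than 1. With only the outermost 5′ end, 28 carried H3K4me3 at both levels, and 20 carried H3K27ac in hypoxia and 19 in normoxia. The share of all genes under that rule was not computed.

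Each gene was then given a state from the marks at its starts. In hypoxia, 25 genes carried both marks, 7 carried H3K4me3 only, none carried H3K27ac only and 2 carried neither. In normoxia the counts were 24, 8, 0 and 2. Of all protein-coding genes in hypoxia, 36.4% carried both marks, 22.5% H3K4me3 only, 1.14% H3K27ac only and 39.9% neither. Among the genes with H3K4me3 at a start, H3K27ac accompanied it in 25 of 32 members in hypoxia (78.1%, 95% CI 61.2 to 89.0), while it did so in 61.8% of the 12873 such genes overall. The overall share lay just inside the interval of the members.

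**Figure D1:**
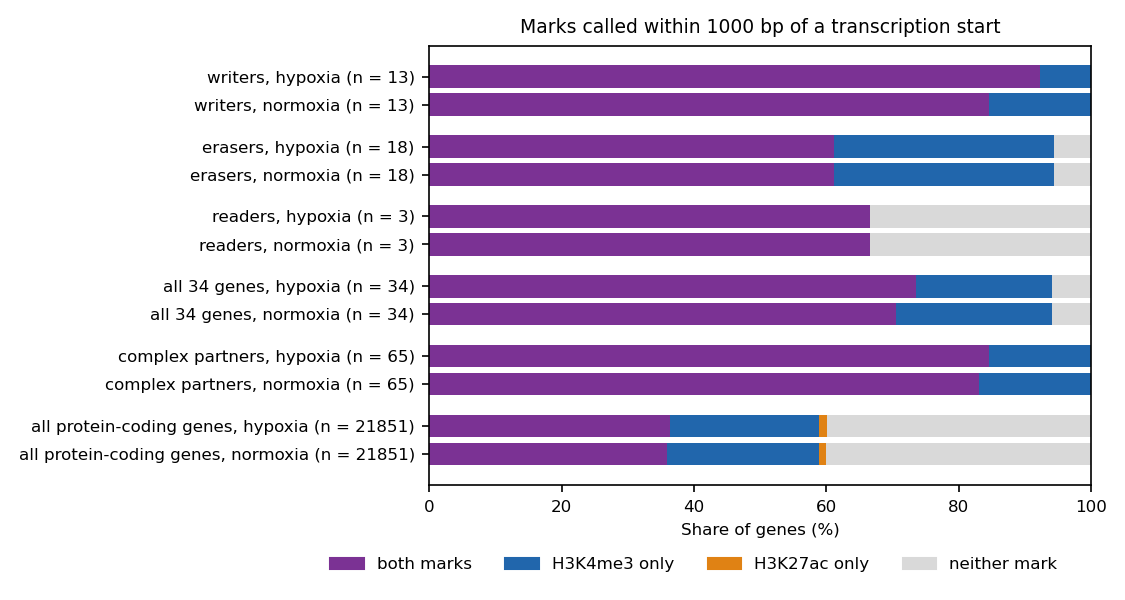
Share of genes (%) with both marks, H3K4me3 only, H3K27ac only or neither mark within 1000 bp of a transcription start, by group of genes and oxygen level. Both marks were called in 25 of 34 genes in hypoxia and 24 in normoxia, and in 36.4% of all protein-coding genes in hypoxia.

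To show what the promoters in each state look like, the 250 bases before the RefSeq start are given for 5 genes from the mm10 genome, written from 5′ to 3′ on the strand of the gene. Capitals mark each CpG, the dinucleotide that is dense in CpG islands. Hat1 (chr2:71389010-71389259, plus strand) had both marks in hypoxia and H3K4me3 only in normoxia. Its stretch lies before the start at 71389260 but downstream of another annotated Hat1 start, at 71388958. Hdac2 (chr10:36974294-36974543, plus strand) had both marks at both levels. Hdac6 (chrX:7947890-7948139, minus strand) had H3K4me3 only. Hdac9 (chr12:34528890-34529139, minus strand) and Brdt (chr5:107330944-107331193, plus strand) had neither.
Hat1: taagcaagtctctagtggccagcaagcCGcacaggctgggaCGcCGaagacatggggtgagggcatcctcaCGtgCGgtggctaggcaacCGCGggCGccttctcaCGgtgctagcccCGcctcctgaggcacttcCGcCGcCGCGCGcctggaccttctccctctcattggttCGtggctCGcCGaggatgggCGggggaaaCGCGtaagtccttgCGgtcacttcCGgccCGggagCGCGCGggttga
Hdac2: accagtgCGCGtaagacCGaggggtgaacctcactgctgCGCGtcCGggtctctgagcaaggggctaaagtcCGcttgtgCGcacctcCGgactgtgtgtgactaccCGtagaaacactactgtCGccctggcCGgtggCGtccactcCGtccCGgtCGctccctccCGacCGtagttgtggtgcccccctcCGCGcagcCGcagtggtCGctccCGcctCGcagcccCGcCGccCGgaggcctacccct
Hdac6: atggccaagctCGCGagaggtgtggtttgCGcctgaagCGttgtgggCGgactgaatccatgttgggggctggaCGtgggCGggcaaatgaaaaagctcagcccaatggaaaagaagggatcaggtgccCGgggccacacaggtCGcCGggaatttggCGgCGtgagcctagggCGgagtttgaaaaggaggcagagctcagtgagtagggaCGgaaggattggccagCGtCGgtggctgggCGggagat
Hdac9: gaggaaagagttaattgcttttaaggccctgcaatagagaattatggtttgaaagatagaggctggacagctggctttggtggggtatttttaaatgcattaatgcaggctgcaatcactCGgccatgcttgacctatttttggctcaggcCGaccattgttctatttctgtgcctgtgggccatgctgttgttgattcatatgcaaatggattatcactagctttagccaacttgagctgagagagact
Brdt: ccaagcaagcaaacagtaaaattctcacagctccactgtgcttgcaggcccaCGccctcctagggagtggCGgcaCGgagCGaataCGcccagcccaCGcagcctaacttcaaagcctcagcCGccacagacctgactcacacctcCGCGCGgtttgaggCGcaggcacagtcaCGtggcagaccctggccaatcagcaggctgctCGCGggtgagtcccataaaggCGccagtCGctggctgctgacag
The stretches of Hat1 and Hdac2 held 27 CpGs each, that of Hdac6 held 17, that of Brdt 16 and that of Hdac9 only 2. GC content was 67.6% for Hat1, 68.8% for Hdac2, 61.2% for Hdac6, 62.4% for Brdt and 43.6% for Hdac9. Brdt therefore had a CpG-rich start with no mark, whereas the unmarked start of Hdac9 was poor in CpG.

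Among the writers, 12 of 13 carried both marks in hypoxia and 11 in normoxia, and all 13 carried H3K4me3. Ep300 and Crebbp encode p300 and CBP, the paired acetyltransferases that place most H3K27ac. Both had both marks at both levels. Ep300 had a single H3K27ac peak of 4000 bp over its start (chr15:81584001-81588000) in each list. Crebbp had a peak of 3500 bp at its start, with the top score of the list at either level. All 5 MYST-family acetyltransferases carried both marks at both levels. These are Kat5, the catalytic subunit of the TIP60 complex, Kat6a and Kat6b, which encode MOZ and MORF, Kat7, which encodes HBO1, and Kat8, which encodes the histone H4 acetyltransferase MOF. Their H3K27ac start peaks were 2000 to 4000 bp wide. The nuclear receptor coactivators Ncoa1, Ncoa2 and Ncoa3, which recruit acetyltransferases to hormone receptors, carried both marks as well.

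The GNAT family was the only writer family with exceptions. Kat2b, which encodes PCAF, carried both marks and had 4 further H3K27ac peaks along its body, the first of them adjoining the start peak. Kat2a, which encodes GCN5, the catalytic subunit of SAGA, carried H3K4me3 at its start (chr11:100711001-100713000) without H3K27ac at either level. A 22000 bp H3K27ac peak (chr11:100713501-100735500) began 1036 bp upstream of that start, just outside the limit of 1000 bp, and covered the start of Hspb9. A second H3K27ac peak of 4000 bp touched the 3′ end of Kat2a and lay over the start of Dhx58. The call for Kat2a thus depended on the limit, and H3K27ac covered 44.9% of its window at both levels. Hat1 is described with the oxygen comparison.

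Of the 18 erasers, 11 carried both marks and 17 carried H3K4me3, with the same genes at both levels. Of the class I deacetylases, Hdac1, Hdac2 and Hdac3 encode the nuclear enzymes of the NuRD, SIN3, CoREST and NCoR complexes. Hdac1 and Hdac2, the paired catalytic subunits of the first 3 of these complexes, carried both marks. Hdac3, the NCoR deacetylase, carried H3K4me3 only at its start, which lies 123 bp from a start of Rell2. An 8000 bp H3K27ac peak inside Hdac3 began 1516 bp from the start, and H3K27ac covered 46.8% of its window. Hdac8, the class I enzyme that deacetylates cohesin, carried H3K4me3 only, and the nearest H3K27ac peak lay 862359 bp away in both lists.

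Class IIa deacetylases shuttle between nucleus and cytoplasm and repress MEF2 factors. Hdac4, Hdac5 and Hdac7 carried both marks at both levels. Hdac9 carried neither at any of its 4 protein-coding starts. It had H3K27ac peaks elsewhere in its 869516 bp gene, the nearest 27804 bp from a start. Its only H3K4me3 peak (chr12:34906001-34908500) lay 377127 bp from the nearest protein-coding start in the set used. That peak lay within 1000 bp of the start of an Hdac9 transcript annotated as a retained intron. Of the class IIb enzymes, Hdac10, a polyamine deacetylase, carried both marks, while Hdac6, the tubulin deacetylase, carried H3K4me3 only. The nearest H3K27ac peak to Hdac6 was 47389 bp away. The class IV enzyme Hdac11, which removes fatty acyl groups, also carried H3K4me3 only, with the nearest H3K27ac peak at 34336 bp.

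Both Hdac6 and Hdac8 lie on the X chromosome. Among X-linked genes with H3K4me3 at a start, H3K27ac was called in 136 of 381 in hypoxia (35.7%, 95% CI 31.0 to 40.6), against 62.6% of 12488 autosomal genes. The mice were male, and the part that X linkage plays in the calls at Hdac6 and Hdac8 was not tested.

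The sirtuins were divided by the compartment of the protein. All 3 nuclear sirtuins, Sirt1, Sirt6 and Sirt7, carried both marks at both levels. Sirt1 deacetylates histones and transcription factors, Sirt6 acts on histone H3 at telomeres and glycolytic genes, and Sirt7 is the nucleolar member. The H3K27ac peak at the Sirt7 start had a score near the foot of its list, at percentile 2.81 in hypoxia and 1.57 in normoxia. Of the mitochondrial sirtuins, Sirt3, the main mitochondrial deacetylase, and Sirt4, which inhibits glutamate dehydrogenase, carried both marks. Sirt5, a desuccinylase, carried H3K4me3 only, and its nearest H3K27ac peak was 107291 bp away. Sirt2, the cytoplasmic sirtuin, carried H3K4me3 only at its start, and had a 4000 bp H3K27ac peak in its body (chr7:28778501-28782500), 11247 bp from the start.

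Among the bromodomain readers, Brd2 and Brd3, BET proteins that bind acetylated histones in most tissues, carried both marks at both levels. Brdt, the testis member of the BET family, carried neither at its starts. Its window held 1 H3K4me3 peak (chr5:107359001-107361000), 27826 bp into the gene and within 1000 bp of the start of a Brdt processed transcript, and no H3K27ac. The nearest H3K27ac peak was 40659 bp from a Brdt start.

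**Figure D2:**
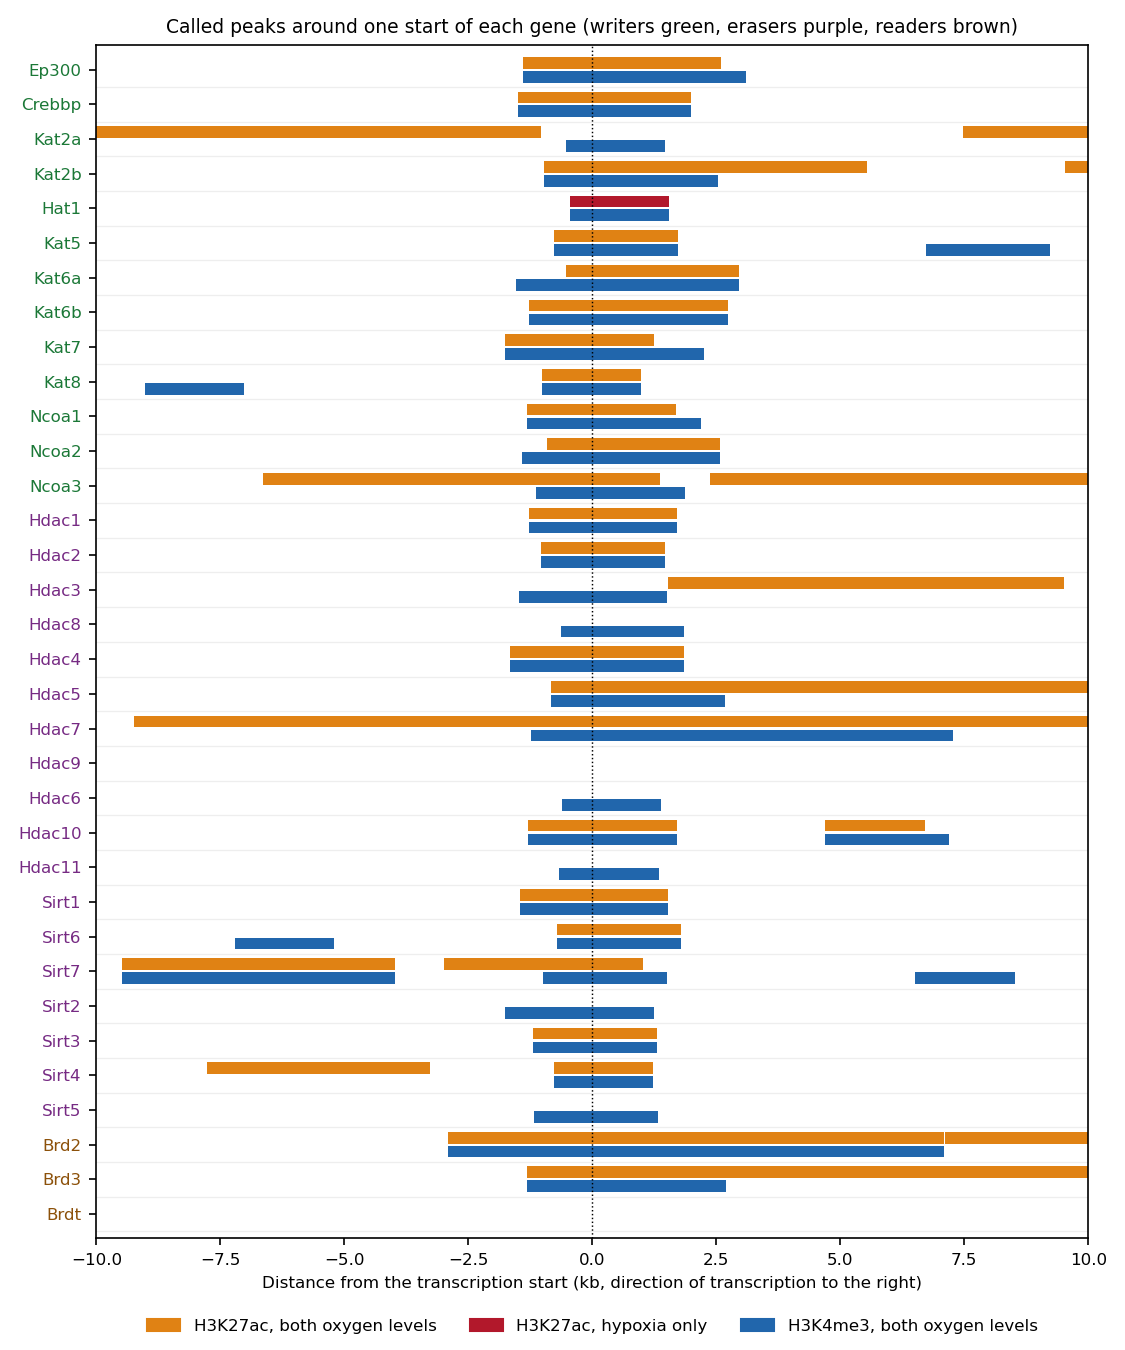
Called peaks by distance (kb) from 1 start of each of the 34 genes, the start nearest to peaks of both marks, with transcription to the right. H3K27ac is the upper and H3K4me3 the lower bar of each gene, Hat1 has the hypoxia-only H3K27ac bar, and the rows of Hdac9 and Brdt are empty.

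Of the 34 genes, 5 had the start of another protein-coding gene within 1000 bp of their own. These pairs were Hdac3 with Rell2 at 123 bp, Sirt2 with Nfkbib at 95 bp, Sirt3 with Psmd13 at 99 bp, Sirt6 with Ankrd24 at 838 bp and Brd2 with H2-DMa at 232 bp. A peak at such a start cannot be assigned to one gene of the pair. Some of the genes with several starts were marked at only part of them. Of 81 member starts, 65 carried H3K4me3 and 53 carried H3K27ac in hypoxia. The shares over the starts of all protein-coding genes were not computed. Sirt1 carried both marks at its starts at 63339032 and 63339035 on chromosome 10, but H3K4me3 only at 63381704. Hdac4 was marked at 92180341 on chromosome 1 and not at 92148393. Ncoa1 was marked at 4477182 on chromosome 12 and not at 4344500. Hdac7 had 7 starts, of which 97831494 and 97831767 on chromosome 15 carried both marks, 97814863 carried H3K27ac only, and the 4 from 97844164 to 97844502 carried none. The marks therefore picked out part of the annotated promoters of these genes.

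The second question was whether the marks on these genes differed between the oxygen levels. Peaks that touched no peak of their mark at the other oxygen level are called hypoxia-only or normoxia-only here. H3K4me3 was called on the same intervals, with the same scores, at both levels in all 34 windows. The lists come from a joint segmentation, so agreement between the levels is partly built in. The identical H3K4me3 scores are therefore not read as equal signal at both levels. A hypoxia-only H3K4me3 peak lay in the window of 0.00915% of all protein-coding genes and a normoxia-only one in 0.0137%. H3K27ac was called on the same intervals at both levels in 32 windows. A hypoxia-only H3K27ac peak lay in the windows of 2 genes, Hat1 and Hdac1, while 2.99% of all protein-coding genes had one. No member window held a normoxia-only H3K27ac peak, against 0.815% of all genes. The 3 hypoxia-only peaks amounted to 0.877 per Mb of member window, against 0.535 per Mb over all genes. In a set of 34 genes, counts of 2 and 0 lie near these background shares.

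Hat1 (chr2:71388958-71441622, plus strand) encodes the acetyltransferase that modifies newly made histone H4 before it is assembled into chromatin. It was the only member whose state at the start differed between the levels, as was the case for 168 of all protein-coding genes, or 0.769%. A hypoxia-only H3K27ac peak at a start was found in 1.09% of all genes. In hypoxia, an H3K27ac peak of 2000 bp (chr2:71388501-71390500) covered the annotated starts and overlapped an exon of the gene. In normoxia, the nearest H3K27ac peak was 20458 bp from the start. H3K4me3 was called on the same 2000 bp at both levels, and no other peak of either mark lay in the window. Its H3K27ac score was 65, at percentile 17.5 of the hypoxia list, and its H3K4me3 score lay at percentile 19.2 in both lists. The percentile gives the share of peaks in a list with a lower score, ties counted at their middle. Hypoxia-only H3K27ac peaks had a median score of 58, at percentile 10.2, against 115 for the shared peaks. The Hat1 peak was thus among the weaker calls of its list, and it fell out when the lowest-scoring 25% of peaks were left out.

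At Hdac1 (chr4:129516104-129542713, minus strand) the start carried an H3K27ac peak of 3000 bp (chr4:129541001-129544000) and H3K4me3 at both levels. Its score lay at percentile 30.0 in hypoxia and 32.9 in normoxia. Past the 3′ end of the gene lay 2 adjoining hypoxia-only H3K27ac peaks. The first (chr4:129513001-129515500) was 604 bp from the gene and lay over the start of Marcksl1, which encodes an actin-binding MARCKS-like protein. It carried H3K4me3 at both levels and a score of 117, at percentile 52.5. The second (chr4:129510001-129513000) was 3104 bp from Hdac1, 581 bp from the Marcksl1 start, without H3K4me3, and had a score of 55, at percentile 6.71. The nearer of the pair was 27213 bp from the Hdac1 start. The difference in the Hdac1 window was therefore placed at the neighbouring gene, and without peaks at the starts of other genes Hat1 was the only member with a hypoxia-only peak.

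Beyond the starts, the windows differed widely in how much H3K27ac they held. The median share of a window covered by H3K27ac peaks was 10.1% in hypoxia and 8.39% in normoxia over the 34 genes, and 0% over all genes at both levels. The levels differed here through Hat1 and Hdac1, the 2 windows with different calls. Over the gene bodies alone, without the flanks, the median was 5.88% at both levels. For all windows pooled it was 10.3% against 7.0% over all genes in hypoxia, and 10.2% against 6.83% in normoxia. The members were longer than most genes, with a median length of 35862 bp against 17380 bp. No H3K27ac peak was found in the windows of 5 members in hypoxia, Hdac6, Hdac8, Hdac11, Sirt5 and Brdt, and Hat1 joined them in normoxia. Among all genes, 54.0% had none in hypoxia. H3K4me3 was present in each of the 34 windows, whereas 36.3% of all genes had none.

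H3K27ac covered 80.1% of the Brd2 window at both levels, the most of any member. It covered 71.7% for Hdac7, 69.0% for Hdac5, 46.8% for Hdac3, 45.1% for Ncoa3 and 44.9% for Kat2a. The lowest values above 0 were 1.26% for Hdac4 and 1.47% for Hdac9. In hypoxia and normoxia alike, the other writers ran from 2.65% for Ncoa2 to 27.9% for Kat6b, apart from Hat1 with 3.19% and 0%. Hdac1 was at 20.2% in hypoxia and 8.19% in normoxia. H3K4me3 cover was highest in Brd2, at 48.5%, and lowest in Hdac9, at 0.284%. The Brd2 start peak of 10000 bp (chr17:34115501-34125500) was the widest H3K4me3 peak at a member start, where the median width was 3000 bp.

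**Figure D3:**
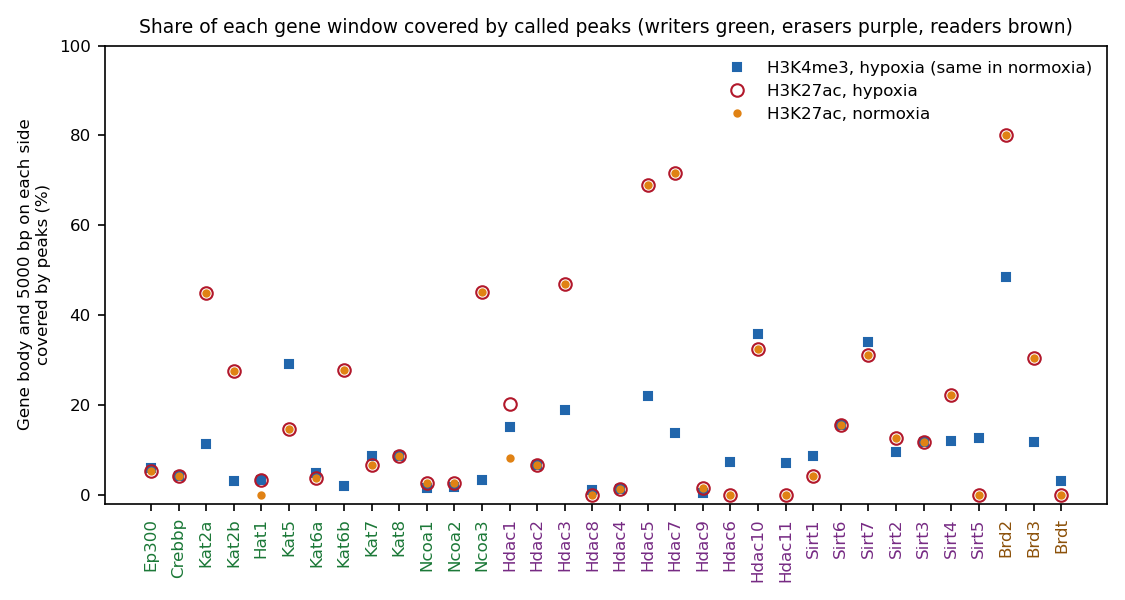
Share of each gene window (%) covered by called peaks, with H3K27ac in hypoxia as open circles, in normoxia as dots, and H3K4me3 as squares. The dot lies inside the circle in 32 genes, and Hat1 and Hdac1 are the exceptions.

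The windows held 91 called intervals in all. Both marks at both levels were called on 33, H3K27ac without H3K4me3 at both levels on 33, H3K4me3 alone on 22, and the 3 others were the hypoxia-only peaks. Of the 69 H3K27ac intervals, 28 lay at a start of the gene itself, 26 in the gene body, 11 at the start of another gene and 4 in the flank. Gene body H3K27ac was found in 12 members. The share of all protein-coding genes with such a peak was not computed, and the members were longer than most genes. The count is therefore not read as a result about the members. Of the 26 gene body intervals, 24 lacked H3K4me3 and 11 overlapped an exon of the gene, and their median width was 7000 bp. The joint segmentation splits a run of H3K27ac where H3K4me3 starts or ends, as in Hdac5 and Hdac7. These counts and widths, and the lack of H3K4me3, thus depend partly on the cuts. The widest lay in Kat6b (chr14:21544501-21575000), spanned 30500 bp outside any exon, and had the top score at both levels. Ncoa3 held 4 such body peaks, and 1 of them (chr2:166041501-166050500) spanned 9000 bp. Hdac5 held a body interval with both marks (chr11:102215501-102220000), which lay within 1000 bp of the start of a protein-coding Hdac5 transcript outside the basic set.

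Where a peak was called at both levels, its rank could still differ. The score percentile within each list was therefore set side by side for the 66 H3K27ac peaks that the member windows shared. The hypoxia percentile was the higher in 27 of 66 (40.9%), against 30.3% of all 14614 shared peaks. The median difference, hypoxia minus normoxia, was -1.64 percentile points for the members and -1.67 for all shared peaks. Tied peaks share a percentile. Those at the top score of 1000 stood at 88.9 in hypoxia, where 3379 tied, and at 90.6 in normoxia, where 2802 tied. A peak with the top score in both lists thus counted as lower in hypoxia. The median over all shared peaks is the gap between these tie percentiles. The counts and medians therefore depend partly on how ties were ranked, and their closeness is not read as a result.

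Single peaks ranked higher in hypoxia by a wider margin. The Brd3 start peak of 4000 bp was at percentile 88.9 in hypoxia and 49.4 in normoxia. A wider Brd3 start peak, of 11500 bp, was at 24.0 and 26.5. Percentile 88.9 is that of the 3379 hypoxia peaks at the top score of 1000, so these ranks are ties. All other scores end at 160. The margins of peaks at 88.9 thus depend on which side of that gap each call fell. The Ncoa3 body peak of 9000 bp was at 88.9 and 45.9, the Sirt2 body peak at 88.9 and 48.7, and the Kat6b start peak at 88.9 and 69.8. A peak in the Hdac3 window, over the start of Diaph1, was at 88.9 and 45.2. The wide peak beside Kat2a was at 71.7 and 39.4, and the Sirt4 start peak at 58.5 and 32.9. In the opposite direction, the Ncoa1 body peak was at 53.0 in hypoxia and 66.9 in normoxia. A flank peak of 11000 bp in the Hdac3 window was at 47.3 and 58.8, and a Kat6b body peak of 9000 bp at 24.0 and 34.7. These are examples picked from the 66 peaks. The quartiles of the difference, hypoxia minus normoxia, were -3.99 and 4.87 for the members and -4.23 and 2.27 for all 14614 shared peaks. The peaks were called on the same intervals at both levels, and no spread between replicates is known for these ranks.

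**Figure D4:**
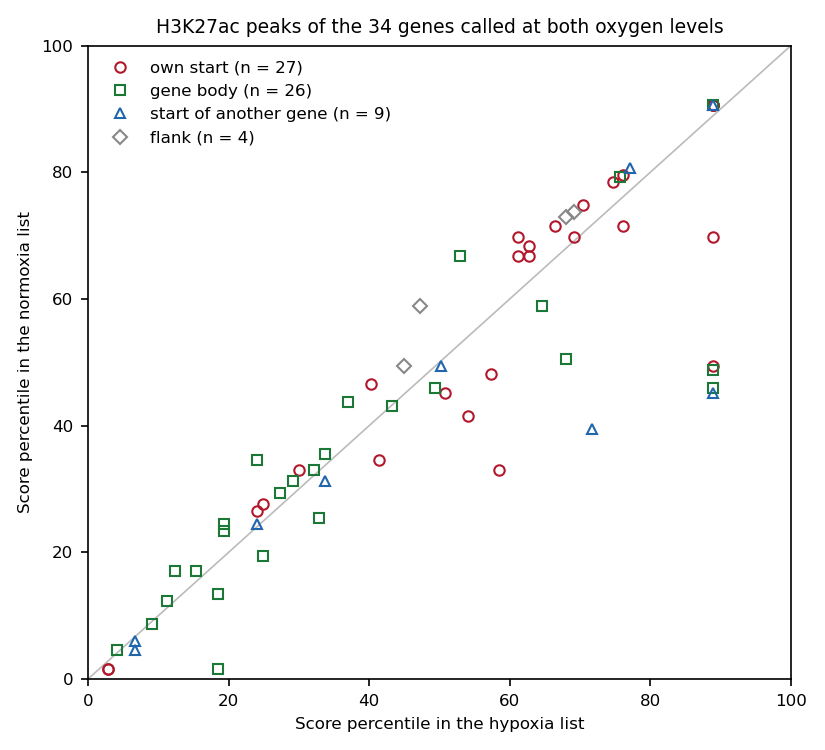
Score percentile in the hypoxia list (x axis) and in the normoxia list (y axis) of the 66 H3K27ac peaks in member windows called at both levels, by position. The line marks equal percentiles, 27 peaks lie below it, and the column of points at 88.9 holds peaks with the top score in hypoxia.

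The promoters were compared with those of other genes on features that the choice of genes did not use. The RefSeq table of this build (GRCm38.p6), from 250 bases before to 50 after each start, held 28 of the 34 genes. It had no entry for Kat6a, Ncoa2, Ncoa3, Hdac1, Hdac3 and Hdac10. Median GC content was 61.7% for the members against 57.0% over 16531 promoters, and the median number of CpGs was 19.5 against 14. The ratio of observed to expected CpG was 0.789 against 0.595. Grouped by the state of the gene in hypoxia, the promoters of 20 genes with both marks had a median of 22 CpGs and 63.7% GC. These include Hdac7, whose RefSeq start is one of its unmarked starts and held 6 CpGs. Among the members, the RefSeq start lay farthest from a GENCODE start in Ep300, at 817 bp, followed by Hdac8 at 201 bp and Hdac11 at 150 bp. The promoters of 6 genes with H3K4me3 only had a median of 17.5 CpGs and 58.2% GC. Values ranged from 3 CpGs in Hdac9 to 49 in Crebbp and Ncoa1.

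The letters ACGTG and GCGTG, which hold the core bound by hypoxia-inducible factors, were searched on both strands, and a promoter was counted once however many matches it held. ACGTG occurred in 9 of 28 member promoters (32.1%), against 21.1% of all promoters. GCGTG occurred in 10 (35.7%), against 39.4%, and at least 1 of the pair in 13 (46.4%), against 50.2%. The Hat1 promoter held ACGTG, read on both strands of a CACGTG that stands in the printed stretch, and no GCGTG. The Hdac2 promoter held neither. A match of this kind is a description of the letters.

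Finally, 65 genes for subunits of the complexes that hold these enzymes were read in the same way. All 65 carried H3K4me3 at a start, against 58.9% of all protein-coding genes. H3K27ac was called at a start of 55 in hypoxia (84.6%) and 54 in normoxia (83.1%). The shares of all protein-coding genes were 37.6% and 37%. Hypoxia-only H3K27ac peaks lay in the windows of Mta3, a NuRD subunit, and of Rcor1 and Rcor2, which encode CoREST proteins. Normoxia-only peaks lay in those of Cited2, which binds p300 and CBP, and Tbl1xr1, an NCoR subunit. Among all protein-coding genes, 2.99% had a hypoxia-only H3K27ac peak in the window and 0.815% a normoxia-only one. So few windows are not read as a result about the partners. Of the named partners, Mta3 had the changed peak at its own start (chr17:83705001-83708000). That peak had the top score of 1000, as did 7 of the 589 hypoxia-only peaks. The score was 57 at Rcor1, 63 at Rcor2, 53 at Cited2 and 51 at Tbl1xr1.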

How the data were processed

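H3K27ac and H3K4me3 ChIP-seq of mouse MSCs at 2% and 21% oxygen was read from 4 peak lists, 1 per mark and oxygen level. Per the methods and labels, the authors aligned the reads to mm10 (Bowtie2) and took out duplicates (Picard). Peaks came from the differential mode of chromstaR, a hidden Markov model, fitted to both libraries of each group (bins of 1000 bp, steps of 500 bp, mapping quality of at least 15). The deposited lists give each peak's position and a score by the authors, with values of 50 to 160 or exactly 1000. Its definition is not given in the sources used here, and it was used only as a rank within a list. The lists are views of a joint segmentation, so overlapping peaks are identical intervals and agreement between the oxygen levels is partly built in by a model fitted to both.

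No read counts or per-library values were used. Replicate spread, depth and the 4 input libraries were thus not analysed here, and no p-value is given.

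Gene windows (gene body and 5000 bp on each side) and the starts of protein-coding transcripts came from the GENCODE M21 basic annotation of mm10. A peak was assigned by an overlap of at least 1 bp with the window, or by lying within 1000 bp of a start. Shares of genes have 95% Wilson intervals. Promoters and sequences came from RefSeq (GRCm38.p6). Python 3.11.15, pandas 2.3.3, numpy 2.4.6, scipy 1.17.1 and matplotlib 3.10.9 were used, and the overlap code was tested on simulated intervals.

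The 34 genes, the complex partners and the markers were chosen with earlier results of these data known. The values of 1 partner and 2 markers are not reported here. All 34 were named by class, and those with an oxygen-specific peak, without H3K4me3 at a start, or with H3K4me3 but no H3K27ac there were described in full. The alternatives were other window and start limits, the outermost start only, a cover of at least 50%, a gap of 1000 bp to the other list, joined peaks, the lowest-scoring 25% left out, and peaks at the starts of other genes left out.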

Additional observations from a re-analysis of the deposited data

How the results depend on the processing

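Over 10 alternative settings, 48 of 56 recomputed values stayed within their limits, 1.5 times for a count and the binomial interval over 91 bins, the median window, for a share of bases. Genes with H3K4me3 at a start numbered 27 to 32, and genes with H3K27ac there 20 to 27 in hypoxia and 19 to 26 in normoxia. The count was the higher in hypoxia except without the lowest-scoring 25% of both lists, where it was 22 in hypoxia and 23 in normoxia. The other 8 values concerned peaks of a single oxygen level. With no flank around the gene body, or with peaks at the starts of other genes left out, 1 gene (Hat1) had a hypoxia-only H3K27ac peak, and there was 1 such peak in place of 3. With a flank of 20000 bp, 4 genes had 5 such peaks, the additions being a 500 bp peak 18340 bp from Sirt2 and a 2500 bp peak 8664 bp from Kat8. Without the lowest-scoring 25% of both lists, 3 genes had a normoxia-only H3K27ac peak, 3 peaks in all, at Kat6b, Hdac10 and Brd3. The hypoxia call on each of these intervals was among the peaks left out. Hypoxia-only peaks were then found at Hdac1 and Ncoa3. The Ncoa3 interval was called at both levels in the full lists, and its normoxia call, with a score of 71 at the limit of 71, was left out. The Hat1 peak was lost, with a score of 65 against a limit of 73 in hypoxia. The cover of 50% could not move a value, since overlapping peaks are identical intervals.

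No paired analysis was possible because each list was made from both libraries of its group, and leaving out 1 library was not run for the same reason. The lists carry no depth, so an uncalled mark is not shown to be absent.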
